A study of Mus musculus with 10 samples.

Results

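Transcripts of 9 genes that build, fill and sense the lipoproteins of the brain were measured in cortex: Apoe, Clu, Apod, Abca1, Abcg1, Nr1h2, Nr1h3, Lcat and Pltp. They were picked by symbol for their known roles out of 53700 gene identifiers counted, and all 9 were among the 19268 genes tested after genes with a total of 10 reads or less were removed. The bulk RNA-seq came from 10 female mice aged 4 months, 5 with the genotype 5XFAD;Neu cKO and 5 with the genotype 5XFAD, with 1 library per mouse. All 10 mice carry the 5XFAD transgenes, human genes with familial Alzheimer's disease mutations inside mouse Thy1 sequence, which is active in neurons. In 5XFAD;Neu cKO mice a Cre recombinase driven by Camk2a, active in excitatory neurons of the forebrain, deletes floxed Idol, which is listed as Mylip. The labels give the 5XFAD mice as WT, opposite cKO, and do not state whether they carry Cre. A figure legend of the study expands WT as wild type for Idol. The study's methods describe the 5XFAD mice as littermates. RNA was taken from cortical tissue as a whole, so that a deletion limited to neurons was read in a mixture of cells, and fewer cells of a type cannot be told apart from less RNA per cell.

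In the brain, lipids move between cells on particles resembling high-density lipoprotein that are assembled locally, mainly by astrocytes, around apolipoproteins such as APOE. The exporters ABCA1 and ABCG1 load these particles with cholesterol and phospholipid, LCAT and PLTP remodel them, and receptors of the LDL receptor family take them up. The liver X receptors (LXRs), encoded by Nr1h2 and Nr1h3, are nuclear receptors that bind oxysterols, pair with RXR and activate genes of this pathway, including Abca1, Abcg1, Apoe and Mylip, whose product IDOL marks receptors of the LDL receptor family for degradation.

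LXR with RXR binds a direct repeat of the half-site AGGTCA with 4 bases between the copies, named DR4 (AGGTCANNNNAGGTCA). The 250 bases before each transcription start in RefSeq promoter sequences (GRCm38.p6), 10 windows for 7 of the 9 genes, were searched on both strands. The windows of Apoe reach no higher than 19433363 on GRCm39, inside the gene and past the start of its canonical transcript at 19433886. The bases before that start of Apoe were therefore not searched. None of the 10 windows matched DR4 with 2 or fewer of its 12 fixed letters different, as 2.57% of all 32851 promoter windows did, and none held the half-site itself, which 14.0% of all windows did. Overlap with other motifs was not examined. With 3 letters different there was a match in Abca1 and in Lcat, against 18.5% of all windows with 3 or fewer. The Abca1 sequence is shown because it lies just before the start of the exporter on which the loading of APOE depends. It matches GRCm39 exactly and is given here for the minus strand at chr4:53159901-53160145, the part of the window that lies before the annotated gene, with the nearest match to DR4, on the opposite strand and 67 to 52 bases before the RefSeq start, in capitals.
Abca1: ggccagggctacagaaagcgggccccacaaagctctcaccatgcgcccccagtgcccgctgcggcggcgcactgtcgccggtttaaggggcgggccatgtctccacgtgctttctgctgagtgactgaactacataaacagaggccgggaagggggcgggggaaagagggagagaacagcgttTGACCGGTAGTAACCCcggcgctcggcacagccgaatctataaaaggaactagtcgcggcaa
The nearest match in Lcat, AGGCCAGCCCAGGACT, lies on the strand of the gene 22 to 7 bases before its RefSeq start. That start lies inside the annotated gene, so the last bases of the match do too. Clu and Abcg1 were not searched. These matches describe letters in a short window and not binding.

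Reads on genes numbered from 4320504 to 7466192 per library. QuantSeq libraries give reads only near the 3′ end of a transcript, whatever its length, and levels below are in CPM (counts scaled to the library total, which was itself corrected by TMM), so that genes can be compared by CPM without dividing by length. Mylip was counted 50, 53, 108, 50 and 45 times in replicates 1 to 5 of 5XFAD and 77, 78, 148, 112 and 50 times in those of 5XFAD;Neu cKO, 11.2 ± 2.27 and 14.8 ± 4.90 CPM (SD, n = 5 each). These counts go against the labels, since the mean was higher where neurons should lack the gene (log2 fold change 0.39, standard error 0.25, adjusted p = 0.777, edgeR), so the groups are called by their labels below. Reads of the 3′ end that lie outside the deleted stretch, which the sources used here do not place, would not show the deletion. The counts also split the libraries in another way, which was found after the values were seen. Of the reads on mt-Nd3 and its nuclear copy Gm28438, mt-Nd3 took 88.1% or more in 5XFAD replicate 2 and in 5XFAD;Neu cKO replicates 1, 3, 4 and 5, and 2.39% or less in the other 5 libraries. These sets, with 1 library of one group and 4 of the other in each, are called the mitochondrial types below.

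In the quasi-likelihood test of edgeR, adjusted by Benjamini and Hochberg over all genes tested, 0 of the 9 genes passed 0.05, where 0.218% of all genes tested did. At an unadjusted p under 0.05 there were 2, Apoe and Clu, both lower in libraries labelled 5XFAD;Neu cKO, where 4.01% of all genes were past it in that direction. With DESeq2, the test the study used, 1 of the 9, Apoe, passed the adjusted threshold, being lower, as 0.265% of all genes did. Genes to which DESeq2 gave no adjusted p count as not passed in both, among them Nr1h2, Nr1h3, Lcat and Pltp. Apoe was also the only 1 of the 9 whose groups did not overlap, and 0.721% of all genes tested had every library labelled 5XFAD;Neu cKO below every library labelled 5XFAD. Of the 9 genes 6 had a log2 fold change below 0 and 3 above 0, with a median of -0.16, beside a median of -0.00056 and a share below 0 of 50.1% over all genes tested. The plot of changes with their intervals shows that those of Apoe and Clu alone lay below 0 as a whole.

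**Figure D1:**
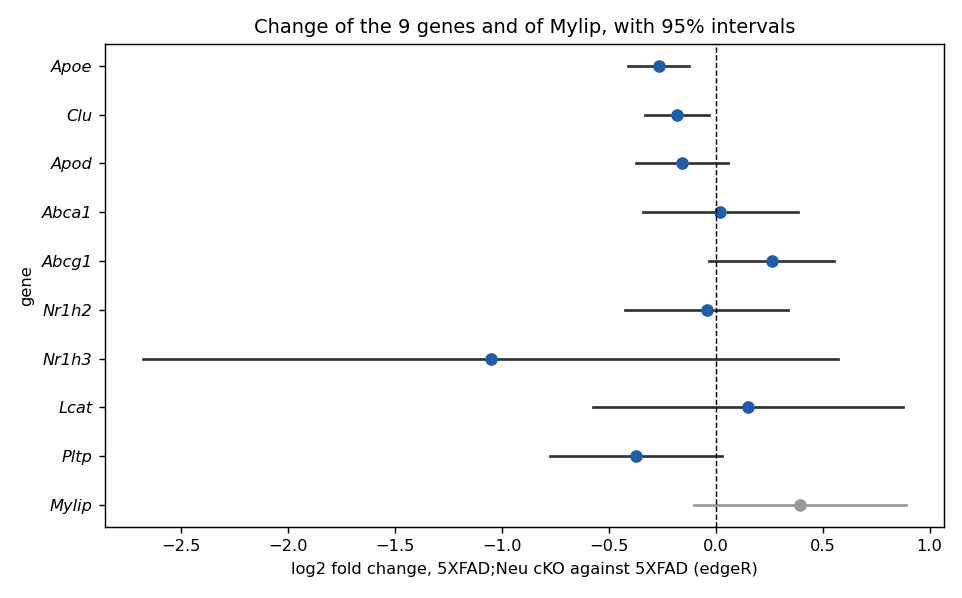
The horizontal axis gives the log2 fold change of each gene on the vertical axis, 5XFAD;Neu cKO label against 5XFAD label (edgeR, n = 5 per group), with its 95% interval as a line; Mylip is in grey. The intervals of Apoe (-0.41 to -0.13) and Clu (-0.33 to -0.03) lie below 0, and those of the other 7 genes and of Mylip include 0.

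By level, the 3 lipoprotein genes stood above the other 6 of the 9 genes in every library. Over all 10 libraries the mean was 1119 CPM for Apoe, 523 for Clu and 95.3 for Apod, followed by the exporters Abcg1 at 36.5 and Abca1 at 25.3, the receptor Nr1h2 at 20.0, Pltp at 18.6, Lcat at 5.43 and the receptor Nr1h3 at 1.33. Each neighbour in this order was above the next in 10 of 10 libraries, with 2 exceptions. Abca1 was above Nr1h2 in 9 of 10, with the same count in the remaining library, and Nr1h2 was above Pltp in 7 of 10, so that neither pair was ordered in every library. Apoe made up 61.4% of the summed CPM of the 9 genes in the libraries labelled 5XFAD and 59.6% in those labelled 5XFAD;Neu cKO, and Clu 28.1% and 28.8%.

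**Figure D2:**
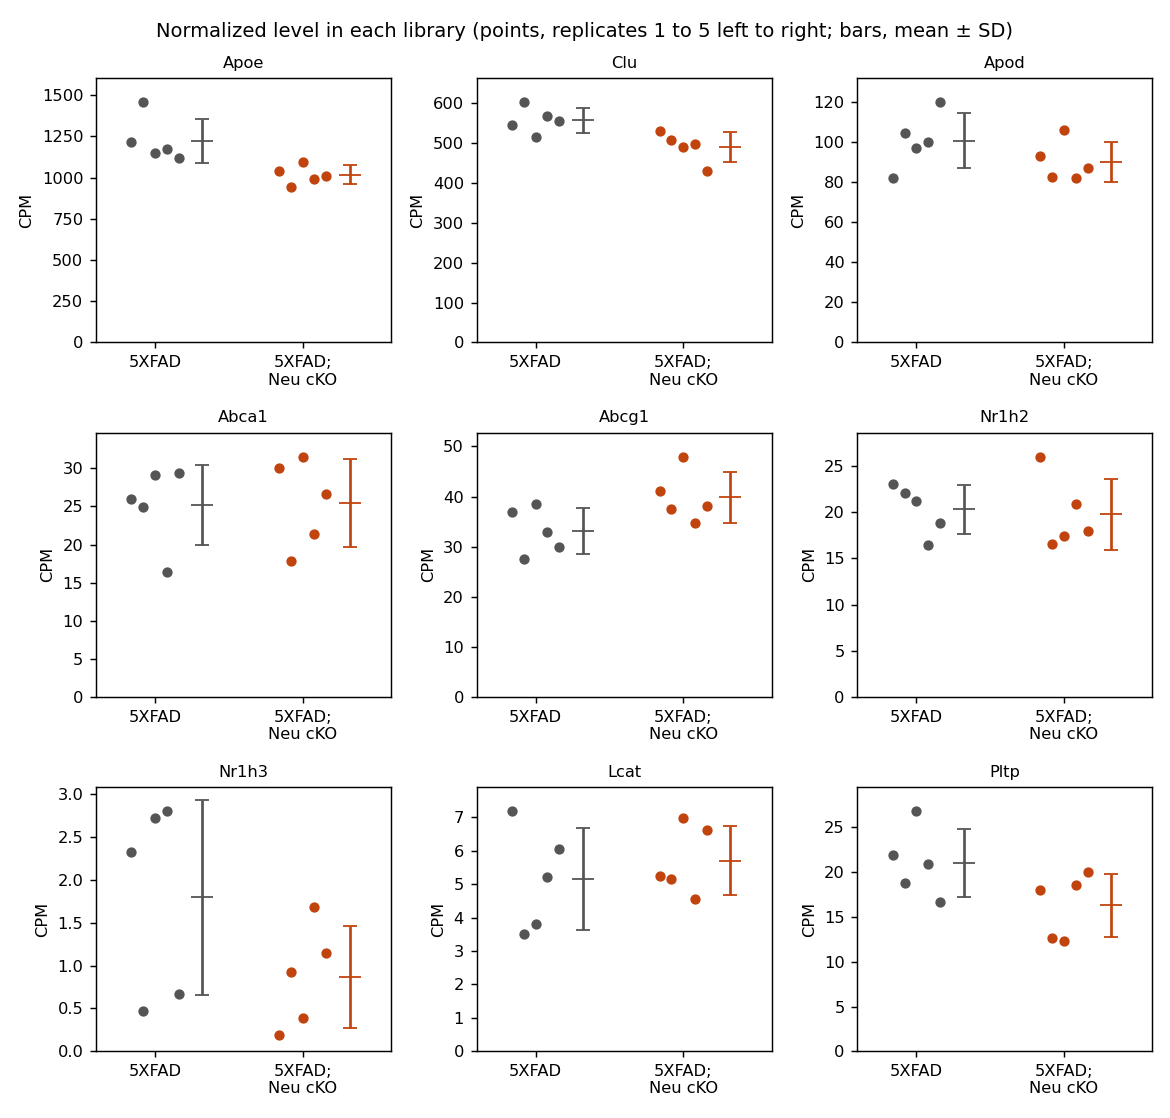
Each panel gives the level of 1 gene in CPM (vertical axis, from 0) in the 5 libraries labelled 5XFAD (grey) and the 5 labelled 5XFAD;Neu cKO (orange), replicates 1 to 5 from left to right, with the mean and SD beside them. In Apoe every orange point (941 to 1096 CPM) lies below every grey one (1117 to 1455 CPM), and in the other 8 panels the groups overlap.

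Apoe (ENSMUSG00000002985, chromosome 7 of GRCm39, 19430034 to 19434947), the main apolipoprotein of brain particles, was counted 4975 to 8459 times per library. It was at 1216, 1455, 1149, 1174 and 1117 CPM in replicates 1 to 5 labelled 5XFAD and at 1040, 941, 1096, 993 and 1008 CPM in those labelled 5XFAD;Neu cKO. All 5 of the latter lay below all 5 of the former, and the gap between the nearest libraries was small beside the range within each group. The means were 1222 ± 135 CPM and 1015 ± 57.6 CPM (SD, n = 5 each), a log2 fold change of -0.27 (standard error 0.07, 95% interval -0.41 to -0.13), or a change of -16.9% (interval -24.7% to -8.33%). The adjusted p was 0.0997 in edgeR's quasi-likelihood test, short of the threshold and at rank 74 of all genes by p, and an exact two-sided permutation test gave p = 0.00794, the smallest that 5 against 5 libraries allow.

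Whether Apoe passed depended on the fit. Its adjusted p was 0.0189 with DESeq2 and 0.0365 with edgeR's robust fit, but 0.338 with library totals alone in place of TMM, where the log2 fold change was -0.17. The TMM factors ran from 0.908 to 1.03 in the libraries labelled 5XFAD and from 0.972 to 1.06 in those labelled 5XFAD;Neu cKO, and as a plain share of counted reads Apoe took 0.113% to 0.132% and 0.0993% to 0.115%, ranges that overlap. Without 5XFAD replicate 2, the highest library, the adjusted p was 0.477 and the log2 fold change -0.20, and without 5XFAD replicate 5 the adjusted p was 0.0456 (edgeR). With the mitochondrial type as a further term, added after the values were seen, the log2 fold change was -0.40 and the adjusted p 0.0033. Within the type with few mt-Nd3 reads, the library labelled 5XFAD;Neu cKO was at 941 CPM and the 4 labelled 5XFAD at 1117 to 1216, and within the other type the library labelled 5XFAD was at 1455 CPM and the 4 labelled 5XFAD;Neu cKO at 993 to 1096. With 1 library in one of the groups of each type, an exact test within a type cannot reach the threshold.

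**Figure D3:**
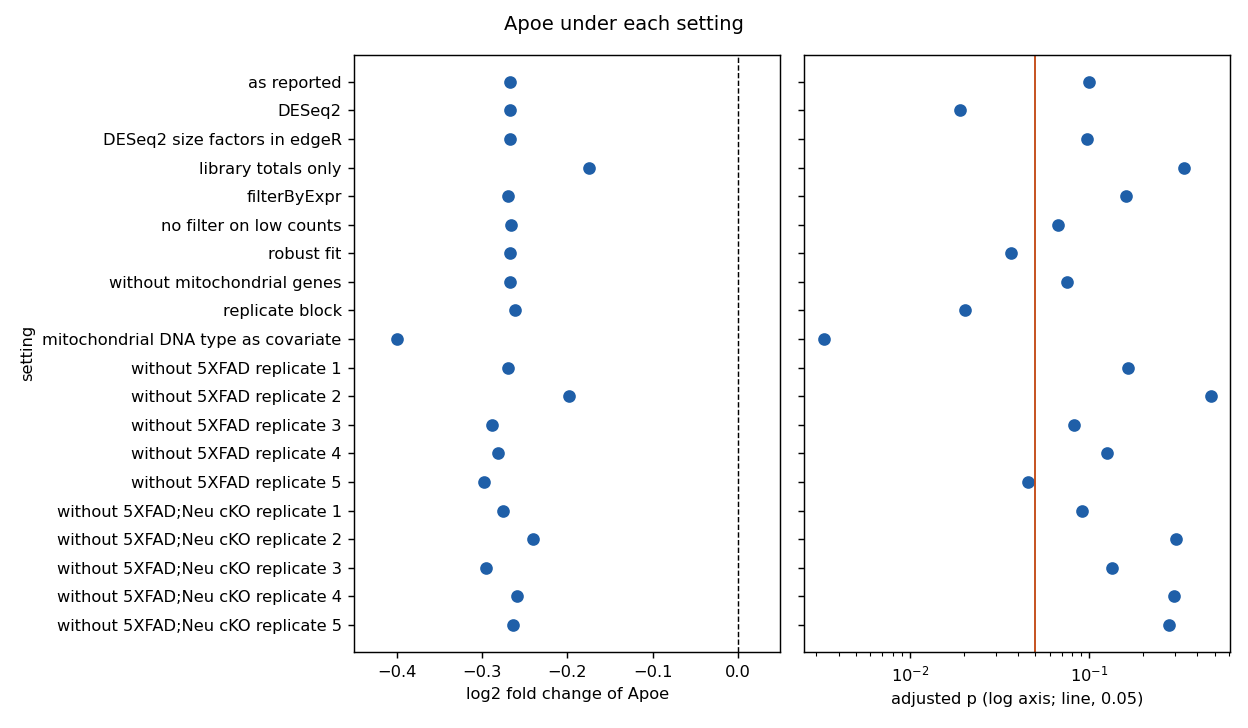
For each setting on the vertical axis, the left panel gives the log2 fold change of Apoe and the right panel its adjusted p on a log axis, with a line at 0.05. The log2 fold change stays below 0 in all settings shown, from -0.40 to -0.17, while the adjusted p falls on both sides of the line, from 0.0033 with the mitochondrial type as covariate to 0.477 without 5XFAD replicate 2.

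Clu (chromosome 14, 66190200 to 66218999), which encodes clusterin or apolipoprotein J, a secreted chaperone carried on lipoproteins, was at 544, 601, 514, 567 and 554 CPM in replicates 1 to 5 labelled 5XFAD. In those labelled 5XFAD;Neu cKO it was at 530, 506, 489, 496 and 429 CPM. Of the latter 4 lay below the lowest library labelled 5XFAD, and replicate 1 fell inside their range. The means were 556 ± 31.7 and 490 ± 37.5 CPM (SD, n = 5 each), a log2 fold change of -0.18 (standard error 0.07, interval -0.33 to -0.03). The unadjusted p was 0.0188 in edgeR and the adjusted p 0.483, and an exact two-sided permutation test gave p = 0.0159. DESeq2 gave an adjusted p of 0.174, and library totals alone gave a log2 fold change of -0.09 with an adjusted p of 0.760 in edgeR. Clu passed in none of the alternatives or of the fits that left out a library.

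Apod (chromosome 16, 31115010 to 31135355), a lipocalin that carries small lipids, was at 82.2 to 120 CPM in libraries labelled 5XFAD, with a median of 99.9, and at 81.8 to 106 CPM in those labelled 5XFAD;Neu cKO, with a median of 86.8. The groups overlapped over most of their range, and the log2 fold change was -0.16 (standard error 0.11, interval -0.37 to 0.06, adjusted p = 0.807, edgeR; exact permutation test, p = 0.214). For Apod this was -0.09 without 5XFAD replicate 5 and -0.08 with library totals alone.

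Neither of the 2 exporters passed the threshold. Abca1 (chromosome 4, 53030787 to 53159900), which passes cholesterol and phospholipid to lipid-poor apolipoproteins, was at 26.0, 24.9, 29.1, 16.4 and 29.4 CPM in replicates 1 to 5 labelled 5XFAD and at 30.1, 17.8, 31.5, 21.4 and 26.6 CPM in those labelled 5XFAD;Neu cKO. Both groups spanned nearly the same range, and the log2 fold change was 0.02 (standard error 0.18, interval -0.34 to 0.38, adjusted p = 0.992, edgeR; exact permutation test, p = 0.952). Its sign turned in 3 of the 10 fits that left out a library and with the mitochondrial type as a term. The interval leaves room for a change of -21.0% to 30.4%.

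Abcg1 (chromosome 17, 31276649 to 31336969), which exports sterol to particles that already hold lipid, was at 37.0, 27.5, 38.4, 33.0 and 29.8 CPM in replicates 1 to 5 labelled 5XFAD. In those labelled 5XFAD;Neu cKO it was at 41.1, 37.5, 47.9, 34.7 and 38.1 CPM, with 2 libraries above the highest of the former and the others inside their range. The log2 fold change was 0.26 (standard error 0.15, interval -0.03 to 0.55), with an unadjusted p of 0.0771 (adjusted p = 0.700, edgeR), and an exact permutation test gave p = 0.0556. The sign was positive in every alternative and in every fit that left out a library, between 0.19 and 0.35.

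Of the LXRs, Nr1h2 (chromosome 7, 44199036 to 44203406), which encodes LXRβ, found in most tissues, was at 16.4 to 23.1 CPM in libraries labelled 5XFAD, with a median of 21.2, and at 16.6 to 26.0 CPM in those labelled 5XFAD;Neu cKO, with a median of 18.0. The ranges nearly coincided (log2 fold change -0.04, standard error 0.19, interval -0.42 to 0.34, adjusted p = 0.989, edgeR; exact permutation test, p = 0.738), and the sign turned with library totals alone and without 3 of the libraries in turn. Nr1h3 (chromosome 2, 91014394 to 91033417), which encodes LXRα, the receptor of liver, fat and macrophages, was counted 12, 2, 20, 15 and 3 times in replicates 1 to 5 labelled 5XFAD and 1, 5, 3, 10 and 8 times in those labelled 5XFAD;Neu cKO. With 79 reads in all, counting error alone gives a coefficient of variation of 31.0% and 43.0% in the 2 groups, and the observed ones were 63.2% and 69.1%. The log2 fold change was -1.05 (standard error 0.81, interval -2.68 to 0.57, adjusted p = 0.856, edgeR; exact permutation test, p = 0.198). The interval spans both signs, and with the mitochondrial type as a term the log2 fold change was -0.29.

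Of the genes whose products remodel the particles, Lcat was low and Pltp was near Nr1h2 in level. Lcat (chromosome 8, 106665839 to 106670046), which esterifies cholesterol on the particle, was counted 15 to 53 times per library, at 3.52 to 7.17 CPM in those labelled 5XFAD and 4.54 to 6.96 CPM in those labelled 5XFAD;Neu cKO. The second range lay inside the first (log2 fold change 0.15, standard error 0.36, interval -0.57 to 0.88, adjusted p = 0.975, edgeR; exact permutation test, p = 0.444). Leaving out single libraries gave log2 fold changes for Lcat from 0.05, without 5XFAD replicate 2 or 3, to 0.30, without 5XFAD replicate 1. Pltp (chromosome 2, 164677702 to 164701743), which moves phospholipid between particles, was at 21.9, 18.8, 26.8, 20.9 and 16.6 CPM in replicates 1 to 5 labelled 5XFAD and at 17.9, 12.7, 12.3, 18.5 and 20.0 CPM in those labelled 5XFAD;Neu cKO. Of the latter 2 lay below the lowest of the former. The log2 fold change was -0.37 (standard error 0.20, interval -0.77 to 0.03, adjusted p = 0.677, edgeR; exact permutation test, p = 0.0952). For Nr1h2, Nr1h3, Lcat and Pltp DESeq2 gave no adjusted p.

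Genes that overlap on the opposite strand bear on some of these counts, since the strand setting of the counting is not given in the sources used here. The 3′ end of Pltp lies inside Ctsa, which encodes a lysosomal carboxypeptidase, and the genes share 1252 bases of exon in the GENCODE annotation of GRCm39. Ctsa was at 33.1 ± 5.75 CPM in libraries labelled 5XFAD and 27.8 ± 4.69 CPM in those labelled 5XFAD;Neu cKO (SD, n = 5 each; log2 fold change -0.24, adjusted p = 0.808, edgeR). Reads of Pltp and Ctsa may have been set aside as ambiguous or given to the other gene, and the value of Pltp is uncertain. Over all genes, 0.43% to 0.47% of the reads kept by the counting were set aside as ambiguous. Nr1h3 shares 256 exon bases with Acp2, which was counted 3336 times in all against its own 79. Unlike that of Pltp in Ctsa, the 3′ end of the canonical Nr1h3 transcript lies outside Acp2. Other annotated ends of Nr1h3 were not checked. The partner of Apod, Gm41442, was counted 13 times in all, and that of Apoe, Gm71725, was not among the identifiers counted.

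Ratios of counts within a library do not depend on how libraries are scaled. Apoe was counted 1.86 to 2.42 times as often as Clu over the 10 libraries, and the log2 ratio differed between the groups by -0.08 (exact two-sided permutation test, p = 0.310). Apoe to Apod ran from 9.33 to 14.8 in the libraries labelled 5XFAD and from 10.4 to 12.1 in those labelled 5XFAD;Neu cKO (difference -0.10 on the log2 scale, p = 0.405, exact permutation test). Clu to Apod gave a difference of -0.03 (p = 0.762), Abca1 to Abcg1 of -0.25 (p = 0.222), Nr1h3 to Nr1h2 of -1.03 (p = 0.270) and Lcat to Pltp of 0.55 (p = 0.143), all by the same exact permutation test. Over the 8 ratios compared, none was past 0.05 after Benjamini-Hochberg adjustment, the lowest adjusted p being 0.0952. A single ratio at the smallest p that this test allows would not have passed either.

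That lowest value belonged to the ratios of Apoe to markers of the glia that express it. Summed levels of 12 astrocyte markers were 4648 to 5408 CPM in libraries labelled 5XFAD and 4545 to 5212 in those labelled 5XFAD;Neu cKO, with 10 of 12 genes lower, 0 past the threshold and the lowest count at 56. Apoe per summed astrocyte marker was 0.225 to 0.272 and 0.193 to 0.229, a difference of -0.21 on the log2 scale (exact permutation test, p = 0.0238, adjusted 0.0952). Summed levels of 12 microglia markers were 374 to 552 CPM in libraries labelled 5XFAD and 274 to 333 in those labelled 5XFAD;Neu cKO, ranges that do not overlap, with 12 of 12 genes lower, 5 of them past the threshold (C1qb, Tyrobp, Csf1r, C1qc and, beyond the rule for named genes, Cx3cr1), and the lowest count at 23. Apoe per summed microglia marker was 2.29 to 3.08 and 2.83 to 3.68, a difference of 0.32 (exact permutation test, p = 0.0159, adjusted 0.0952). Both ratios overlapped between the groups and neither passed after adjustment.

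**Figure D4:**
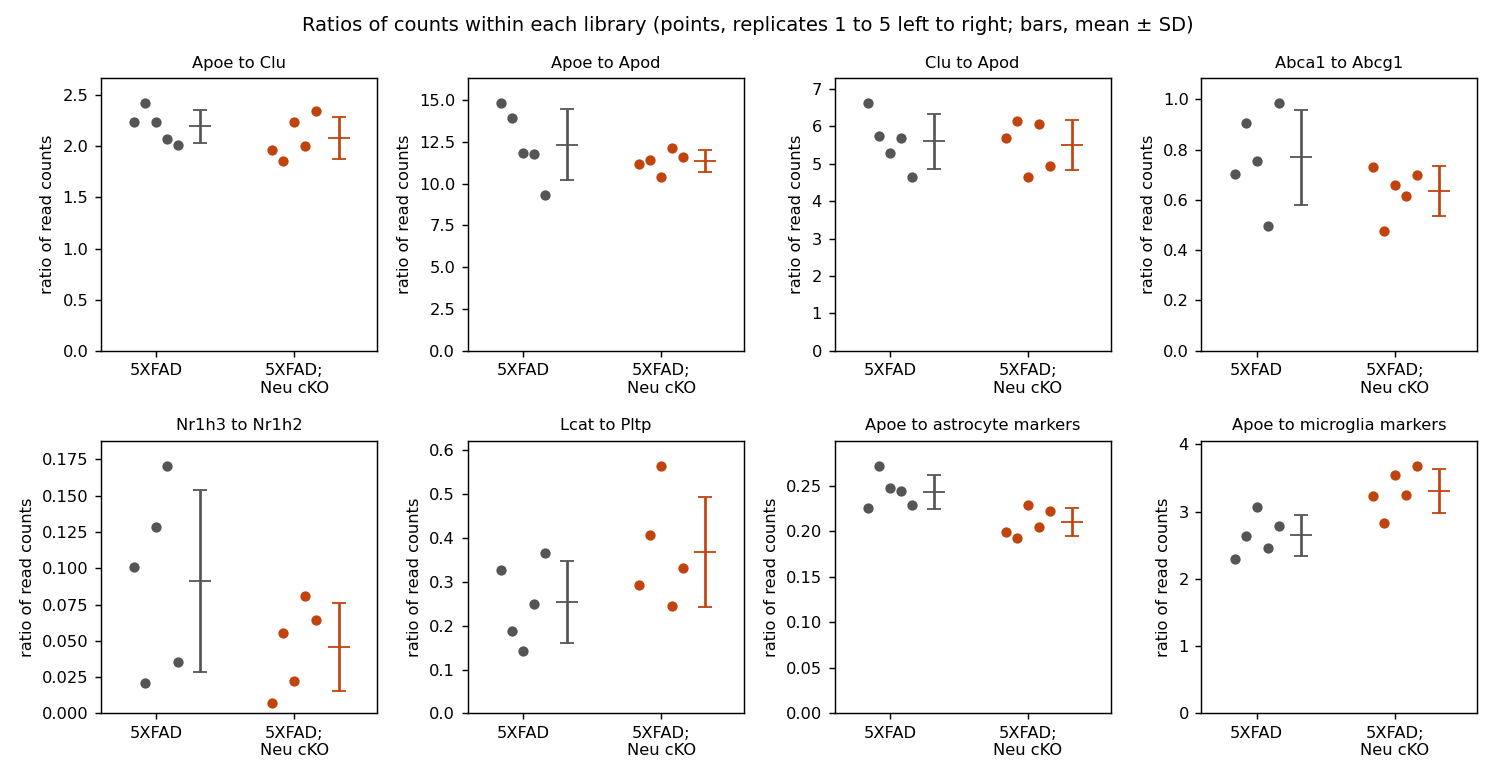
Each panel gives 1 ratio of read counts (vertical axis, from 0) in the 5 libraries labelled 5XFAD (grey) and the 5 labelled 5XFAD;Neu cKO (orange), replicates 1 to 5 from left to right, with mean and SD. The groups overlap in all 8 panels, least in Apoe to astrocyte markers (0.225 to 0.272 against 0.193 to 0.229) and Apoe to microglia markers (2.29 to 3.08 against 2.83 to 3.68).

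Other marker lists moved beside the 9 genes as follows. The sum of 15 plaque-associated microglia genes was 817 to 995 CPM in libraries labelled 5XFAD and 595 to 690 in those labelled 5XFAD;Neu cKO, with 13 lower and Ctsd and Clec7a past the threshold; Clec7a and Itgax were at 0 in some libraries. The sum of 9 reactive astrocyte genes was 109 to 143 and 73.9 to 113 CPM, with 7 lower and Gfap past the threshold. That of 11 oligodendrocyte markers was 2141 to 3128 and 1892 to 2965 CPM, with 11 lower and Mal past the threshold, and that of 6 blood cell genes 17.8 to 63.8 and 51.7 to 218 CPM, with Hbb-bs and Hba-a1 higher past the threshold. Sums of markers of progenitors of oligodendrocytes, endothelium, pericytes, fibroblasts and meninges, choroid plexus and ependyma, excitatory neurons and inhibitory neurons held no gene past the threshold. Over the 13 sums 0 were past 0.05 after adjustment, at 0.0516 for both microglia lists (exact permutation test). Before adjustment both had p = 0.00794 in the exact two-sided permutation test, the smallest it allows. With no further list at that value, adjustment over 13 sums could not bring them below 0.05. This test therefore cannot decide whether these microglia sums differ. The part of these cells in the values of Apoe and Clu was not tested.

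Related genes were taken from 7 lists written by function, and 1 gene in them passed the threshold. Among 18 tested targets of LXR other than the 9 genes, 13 were lower and 5 higher, with a median log2 fold change of -0.17. Mylip, the gene targeted by the deletion, is in this list and counts among those higher. Npc2, which hands cholesterol out of the lysosome, fell from 86.8 ± 8.58 CPM in libraries labelled 5XFAD to 55.7 ± 6.40 CPM in those labelled 5XFAD;Neu cKO (SD, n = 5 each; log2 fold change -0.64, standard error 0.12, adjusted p = 0.000932, edgeR), and the groups did not overlap. An unadjusted p under 0.05 was also found for Scd1, Apoc1 and Acaca, 3 genes named here after their values were seen. Scd1, a fatty acid desaturase, was at 70.2 ± 15.2 and 52.6 ± 6.12 CPM (log2 fold change -0.41, adjusted p = 0.254, edgeR). Apoc1, also in the list of apolipoproteins, was counted 0 to 20 and 0 to 5 times, and the log2 fold change of Acaca was -0.30 (adjusted p = 0.611, edgeR).

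Of the RXRs and coregulators of LXR, 15 were tested, with 8 lower, 7 higher, 0 past the threshold and a median of -0.02. The lowest p-values belonged to Hdac3 (log2 fold change 0.73, adjusted p = 0.441), Tbl1xr1 (0.30, adjusted p = 0.511) and Ncoa1 (0.22, adjusted p = 0.672, all edgeR), of which the first belongs with the second to a corepressor complex and the third is a coactivator. Of 10 genes that make oxysterols or handle cholesterol esters 8 were lower, with a median of -0.18 and 0 past the threshold. Among them Nceh1, a cholesterol ester hydrolase, was at 219 ± 14.9 and 187 ± 21.6 CPM (log2 fold change -0.23, adjusted p = 0.445, edgeR), whereas Cyp39a1 was counted at most 18 times and Ch25h at most 7 times in any library.

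Other ABCA and ABCG transporters numbered 13 tested, with 9 lower, 4 higher, 0 past the threshold and a median of -0.16. Abca2 was at 96.5 ± 14.8 CPM in libraries labelled 5XFAD and 78.4 ± 14.0 CPM in those labelled 5XFAD;Neu cKO (log2 fold change -0.30, adjusted p = 0.452, edgeR), followed by Abca5 (-0.22) and Abcg4 (-0.26). Other apolipoprotein genes were scarce, with 6 of 18 tested, 2 lower, 4 higher, 0 past the threshold and a median of 0.88. Apool, a mitochondrial protein in spite of its name, was counted 3 to 15 times in libraries labelled 5XFAD and 15 to 35 times in the others (log2 fold change 1.47, adjusted p = 0.436, edgeR), and Apoo, also mitochondrial, 4 to 17 and 2 to 65 times. Of 11 lipase and regulator genes tested 6 were lower, with a median of -0.0034 and 0 past the threshold.

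Among 10 receptors for brain lipoproteins 8 were lower, with a median of -0.19 and 0 past the threshold. Trem2, a microglial receptor that binds lipids and apolipoproteins and is also 1 of the 12 microglia markers above, was at 15.7 ± 2.33 CPM in libraries labelled 5XFAD and 8.09 ± 2.56 CPM in those labelled 5XFAD;Neu cKO, without overlap (log2 fold change -0.96, standard error 0.25, adjusted p = 0.0994, edgeR). Lrp8, a receptor of APOE and Reelin, was at 85.3 ± 9.06 and 68.6 ± 7.87 CPM (log2 fold change -0.31, adjusted p = 0.402, edgeR). Lrp2, the receptor megalin, was counted 0 times in every library labelled 5XFAD and 0 to 11 times in the others, and no fold is given. The plot of gene lists sets these values beside those of the 9 genes.

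**Figure D5:**
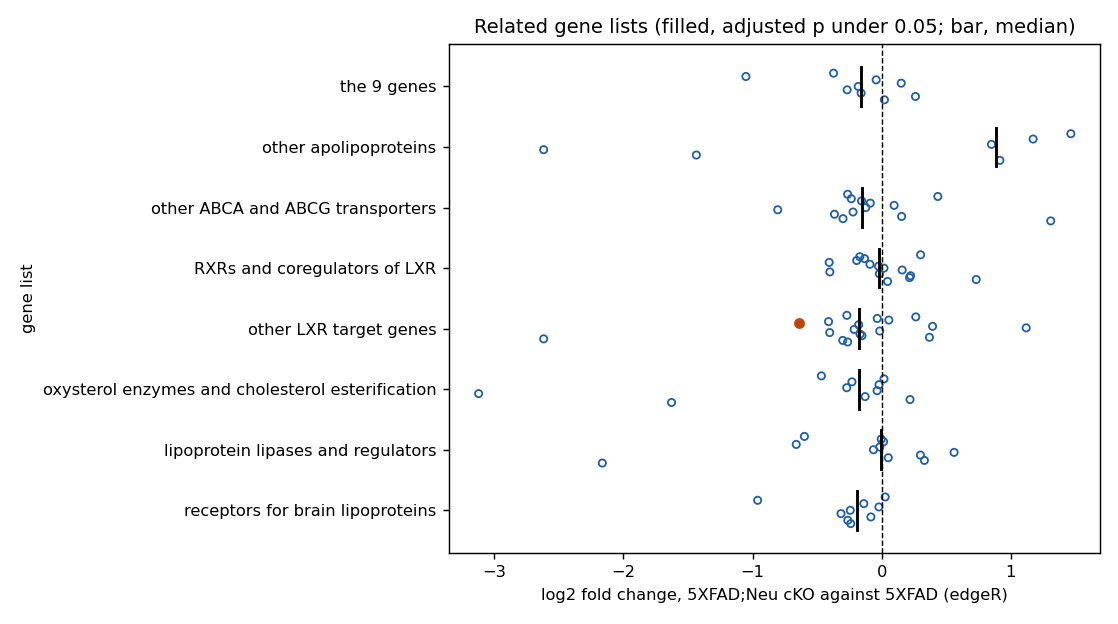
Each row is a gene list, each circle the log2 fold change of 1 gene (horizontal axis, 5XFAD;Neu cKO label against 5XFAD label, edgeR) and each bar the median of the list. Npc2 (-0.64) is the only filled circle, past an adjusted p of 0.05, and circles beyond -2 are genes with few reads, such as Apoc1 and Cyp39a1. Lrp2 has no circle, being at 0 in every library labelled 5XFAD.

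After the mean of each group was subtracted, the 36 pairs among the 9 genes gave values of Pearson's r of log2 CPM from -0.69 to 0.52 over the 10 libraries. The lowest was between Apod and Nr1h3 and the highest between Nr1h3 and Pltp, both with the few reads of Nr1h3. It was 0.38 between Apoe and Clu, 0.50 between Abca1 and Nr1h2, 0.39 between Abca1 and Abcg1 and -0.31 between Nr1h2 and Nr1h3, given as descriptions over libraries that differ in depth. Among 8840 genes of at least 10 CPM, the most alike were Pvalb, Tpst2 and Mcph1 for Apoe (r of 0.94 to 0.95), Snora73b, Zcchc17 and Sema4d for Clu (0.92 to 0.93) and Gm7265, Tent4b and Rgs10 for Apod (0.92 to 0.93). For the exporters these were Phospho2, Rpp30 and Zfp160 for Abca1 (0.90 to 0.96) and Tril, Capzb and Pum2 for Abcg1 (0.92 to 0.95), and for Nr1h2 they were Pcdh7, Tmx1 and Gnaz (0.93 to 0.98). For Nr1h3 they were Brms1l, Fam76a and Acadm (0.93 to 0.95), for Lcat Klhl12, Sec22c and Khdrbs2 (0.89 to 0.93), and for Pltp Nrg3, Fndc4 and Kpna6 (0.90 to 0.95). With 10 libraries and so many genes searched, the highest values of r are large by selection.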

How the data were processed

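Cortical RNA of 10 female mice was made into QuantSeq 3′ libraries. The authors trimmed the reads, aligned them to GRCm39 with STAR 2.7.3a and counted them per Ensembl gene with HTSeq (0.9.1 in the submitters' processing notes, another version in the study's methods). The values the authors deposited are raw read counts per gene, without normalization. Symbols and positions came from GENCODE M39, a later release than the authors', for 52610 of 53700 identifiers. Of the reads kept by the counting, 31.3% to 39.9% lay on no gene, and these rows were left out.

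Groups came from the labels. As in the study's methods, a gene needed a total above 10 reads. The test was that of edgeR 4.0.16 in R 4.3.3 (TMM, glmQLFit, group as the only term, Benjamini-Hochberg over 19268 genes, threshold 0.05). DESeq2, which the study itself used with group as the only term, was run as an alternative in version 1.42.0. The other alternatives were DESeq2's size factors, library totals, filterByExpr, no filter, a robust fit, no mitochondrial genes, a replicate block and each library left out. The mitochondrial type was added after seeing the data. Exact two-sided permutation tests used mean log2 CPM (prior count 2) or log2 ratios over 252 relabellings. Replicate numbers showed no sign of pairing the libraries. Correlations of same-numbered libraries ran from -0.028 to 0.011, and the best with another number from 0.020 to 0.040. With all of these values near 0, the check cannot exclude a weak pairing. The fits were checked on simulated data.

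The 9 genes, the lists and the tests were chosen with earlier results of these data known. Named genes were the 9 genes and Mylip, in each related list the genes past the threshold or otherwise the 3 of lowest p, in each marker list up to 4 past the threshold, and the 3 genes most alike to each of the 9. Some genes that this rule covers are not reported here. Of 246 list symbols 1, Fcrls, was not found. Intervals of log2 fold changes come from the edgeR fit and, like the p-values, cover the spread between these mice. Coefficients of variation from counting error alone, as given for Nr1h3, leave this spread out.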

Additional observations from a re-analysis of the deposited data

Results flagged for a closer look

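Of 62 groups of 5 libraries checked for a value far from the other 4 (gap over range above 0.71), 2 were flagged, where chance alone gives about 1 in 20, and neither was a level of one of the 9 genes. The summed CPM of plaque-associated microglia genes was 595 in 5XFAD;Neu cKO replicate 5, the lowest of its group, with the others at 674 to 690. The summed CPM of blood cell genes was 218 in 5XFAD;Neu cKO replicate 1, the highest of its group, with the others at 51.7 to 92.4. In these libraries Apoe was at 1008 and 1040 CPM, inside the range of its group, while Clu was the lowest of its group in replicate 5 (429 CPM) and the highest in replicate 1 (530 CPM).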

How the results depend on the processing

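The count of the 9 genes past the threshold was 0, and 1, in each case Apoe, with DESeq2, with the robust fit, with the replicate block (adjusted p = 0.0202) and with the mitochondrial type as covariate. Without single libraries it ran from 0 to 1. Among all genes 42 passed (11 higher, 31 lower), against 73 with DESeq2, 103 with no filter, 112 with the replicate block and 91 with the mitochondrial type, and 26 (without 5XFAD replicate 2) to 72 (without 5XFAD;Neu cKO replicate 1) without single libraries. Without 5XFAD;Neu cKO replicate 4 or replicate 5 there were 27 each. With library totals alone 52 passed, 32 higher and 20 lower, and the median of all genes moved from -0.00056 to 0.086. Genes past the threshold in the related lists were 1, and 2 (Npc2 and Trem2) with the replicate block. The block changed no other call on the 9 genes, and every library's correlation with its own number was under 0.1. Sums of markers past the threshold were 0, and without single libraries 0 to 3; the 3, without 5XFAD replicate 1, were both microglia sums and the blood sum. The median of the 9 genes was -0.08 with library totals alone and ran from -0.19 to -0.09 without single libraries, and the ratios past the threshold stayed at 0.

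Signs turned in 9 log2 results, none past the threshold in any setting. With library totals alone these were Nr1h2 (0.042) and the sums of astrocyte (0.040), oligodendrocyte progenitor (0.039), endothelial (0.022) and excitatory neuron markers (0.061). Abca1 was at -0.18 with the mitochondrial type as covariate. Without single libraries Abca1 ran from -0.10 to 0.12, Nr1h2 from -0.16 to 0.013 and Clu to Apod from -0.091 to 0.038. The sums ran from -0.063 to 0.079 for fibroblasts and meninges, from -0.022 to 0.074 for inhibitory neurons, from -0.057 to 0.0020 for excitatory neurons and from -0.11 to 0.0030 for oligodendrocyte progenitors. The causes were not tested. Nr1h3 was removed by filterByExpr. Lcat ran from 0.05 to 0.30 without single libraries, the ratio of Apoe to Apod from -0.20 to -0.03 and that of Nr1h3 to Nr1h2 from -1.46 to -0.47. Counting error is largest for Nr1h3 and Lcat.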
